A study of Homo sapiens with 6 samples.

Results

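The canonical histone genes, which encode the linker histone H1 and the core histones H2A, H2B, H3 and H4, were examined in control and CTTN-overexpressing SKBR3 cells. Members were the rows of the deposited gene table in which any gene name began with HIST1 to HIST4, for the genomic cluster, followed by H1, H2A, H2B, H3 or H4, for the class. This rule took 86 of 54644 gene rows, and no measured value entered it. Of these, 8 rows were of class H1, 20 of H2A, 24 of H2B, 14 of H3 and 16 of H4, and 4 rows merged genes of 2 classes. By cluster, 65 rows belonged to HIST1, 16 to HIST2, 4 to HIST3 and 1 to HIST4. RefSeq lists 19 of the 86 rows as pseudogenes. SKBR3 is a breast cancer cell line with amplified HER2 (ERBB2). The 3 CTTN libraries came from cells infected with a pLVX lentivirus carrying CTTN, the gene of the actin-binding protein cortactin, and the 3 control libraries from cells infected with the empty pLVX vector. Both lines were selected with puromycin, neither the labels nor the study's methods say that the libraries of a group came from separate infections, and p-values therefore measure only the spread between these libraries.

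Histones package DNA into nucleosomes, in which pairs of H2A, H2B, H3 and H4 form the core and H1 binds the linker DNA. Most canonical histone genes lie in clusters and are transcribed in S phase, and their mRNAs end in a stem-loop bound by SLBP in place of a poly(A) tail. Some of these genes, HIST1H1C, HIST1H2BD and HIST2H2BE among them, are also known to make polyadenylated mRNAs from a signal further downstream. The libraries were made from poly(A)-selected mRNA, so stem-loop transcripts were selected against and the values below weigh the polyadenylated forms. They give each gene's share of the library and not its amount per cell, and fewer expressing cells and less RNA per cell cannot be told apart.

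The sequences just upstream of the 4 histone genes that passed the test below are shown because histone promoters carry short, well-known motifs. Each line is the 150 bases before a RefSeq start site, 5′ to 3′ on the gene's own strand, in build GRCh38.p14. RefSeq lists a pair of start sites a few bases apart for HIST1H2BK and for HIST1H2BD, and the one nearer the deposited row was used, so these windows end just inside the longer transcript. HIST1H2BK (RefSeq H2BC12) is at chr6:27146856-27147005 on the minus strand, HIST1H2BD (H2BC5) at chr6:26157972-26158121 on the plus strand, HIST2H2BE (H2BC21) at chr1:149886683-149886832 on the minus strand and HIST2H4A (H4C14) at chr1:149832507-149832656 on the plus strand. Capitals mark the CCAAT box (CCAAT), the TATA box (TATAAA) and the core of the octamer (TTTGCAT) on either strand.
HIST1H2BK: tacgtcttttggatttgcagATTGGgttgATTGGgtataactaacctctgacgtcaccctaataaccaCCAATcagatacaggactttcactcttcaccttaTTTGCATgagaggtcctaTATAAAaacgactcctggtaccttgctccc
HIST1H2BD: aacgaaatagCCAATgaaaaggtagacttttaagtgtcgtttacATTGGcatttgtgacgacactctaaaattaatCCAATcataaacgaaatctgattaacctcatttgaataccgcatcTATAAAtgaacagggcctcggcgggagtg
HIST2H2BE: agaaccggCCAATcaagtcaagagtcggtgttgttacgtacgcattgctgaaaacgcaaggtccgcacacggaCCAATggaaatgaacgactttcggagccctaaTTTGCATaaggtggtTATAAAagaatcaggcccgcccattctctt
HIST2H4A: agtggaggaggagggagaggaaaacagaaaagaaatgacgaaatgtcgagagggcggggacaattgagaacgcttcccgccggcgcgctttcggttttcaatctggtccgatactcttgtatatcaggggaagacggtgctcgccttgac
The 3 H2B genes each had a TATA box starting 29 or 30 bases before the start site, and a CCAAT box 74 to 82 bases before it. The octamer core stood 48 bases before the start in HIST1H2BK and 45 bases before it in HIST2H2BE. In the window of HIST2H4A none of these letters were found.

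RefSeq gave an upstream sequence for 66 of the 90 histone names in the 86 rows. Over the full 250 bases upstream, a CCAAT box was present in 84.8% of these 66 promoters and in 32.0% of all 35116 promoters of the table. TATAAA was present in 66.7% of the histone promoters against 10.7% of all. The octamer core TTTGCAT, known as the element of H2B promoters, was present in 39.4% against 3.94%. By class the octamer core was found in 14 of 18 H2B and 11 of 16 H2A promoters, in 1 of 13 H3 promoters and in none of 6 H1 or 13 H4 promoters. The 1 H3 promoter, entered for HIST1H3D, has the same coordinates and bases as that of HIST1H2AD, so it is an H2A promoter entered again. Within 500 bases of each other, 11 pairs of H2A and H2B start sites faced away from each other, 194 to 248 bases apart, so that their upstream sequences overlap.

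The deposited counts, which are scaled between libraries, summed to between 35695339 and 39318390 per library, from 35618400 to 42126200 fragments before scaling. CTTN itself was listed at 180, 263 and 329 FPKM in CTTN libraries 3, 1 and 2 and at 104 to 108 FPKM in the controls, with a log2 fold change of 1.35 ± 0.22 (SE, n = 3 and 3, edgeR quasi-likelihood test, adjusted p = 0.0249). The epithelial markers expected of the line (ERBB2, KRT8 and others, 6 in all) summed to between 6250 and 9457 FPKM in the CTTN libraries and 6751 to 6966 FPKM in the controls. The 6 fibroblast markers summed to 2.94 to 4.30 against 3.51 to 4.44 FPKM, the 5 leukocyte markers to 1.93 to 3.19 against 1.28 to 1.67 FPKM, and the 5 basal or mesenchymal markers to 2.68 to 3.59 against 2.20 to 2.42 FPKM. The 4 endothelial markers summed to 1.55 to 2.19 against 4.20 to 4.65 FPKM, nearly all of it CDH5, which fell by 1.49 on the log2 scale (adjusted p = 0.00845). Most markers of these 4 other cell types were below 1 FPKM in every library, and their part in the histone values was not tested.

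The CTTN libraries differed in how read counts followed transcript length, which bears on the histone values because 28 of the 40 histone rows tested had transcripts of at most 1500 bases and the other 12 of 1500 to 3000 bases. Among the 389 tested genes of at most 600 bases, the median log2 ratio to the control mean was 0.32 in CTTN library 1 and 0.82 in CTTN library 3, but -0.01 in CTTN library 2. Among the 1502 genes above 6000 bases it was -0.42, -0.77 and -0.01 in the same libraries. CTTN library 2, which had the highest CTTN level, thus carried no such trend, and CTTN library 3 carried the steepest one. The named histone results of the larger changes are therefore given also from a fit with each library's length trend as an offset, and from CTTN library 2 alone against the 3 controls, both chosen after seeing the data. With a single CTTN library the spread comes from the controls only, so values of single genes from CTTN library 2 alone are given here as log2 differences without a p.

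**Figure D1:**
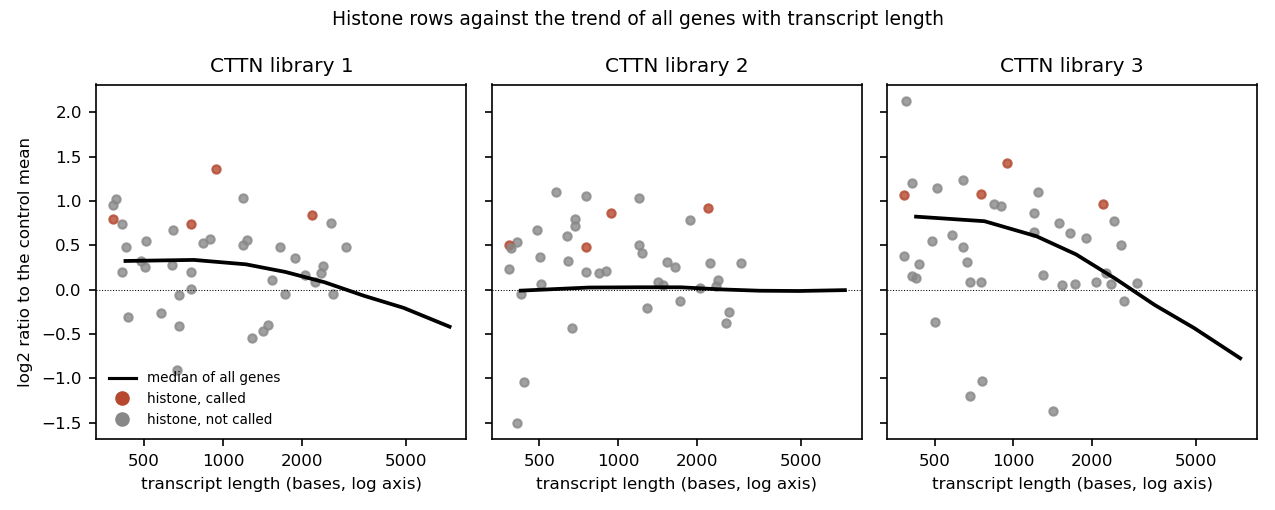
Log2 ratio of each tested histone row to the control mean (vertical) against its transcript length in bases (horizontal, log axis), in each CTTN library, with the median of all genes by length bin as a line. The line falls from 0.82 to -0.77 in library 3 and stays near 0 in library 2, while histone rows that passed the test (red) lie above 0 in all 3 libraries.

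Summed histone FPKM was 1.63 times as high in CTTN-overexpressing cells as in controls, few single histone genes passed the test over all genes, and the median short gene was also higher. The median log2 fold change of all genes was 0.41 at lengths up to 600 bases, 0.40 from there to 1000 bases and 0.32 from there to 1500 bases, the bins that held 28 of the 40 histone rows tested. The sum is a description and was not tested. The 86 rows summed to 512, 417 and 628 FPKM in CTTN libraries 1, 2 and 3 and to 316, 322 and 319 FPKM in the controls. All 3 CTTN sums lay above all 3 control sums, and the spread was far wider among the CTTN libraries (519 ± 106, SD, n = 3) than among the controls (319 ± 2.81, SD, n = 3). In counts the family took 0.0206% to 0.0259% of the CTTN libraries and 0.0157% to 0.0159% of the controls. Without HIST1H2BK and HIST1H1C, the 2 most abundant rows, the ratio of summed FPKM was 1.45.

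Of the 86 rows, 40 had enough counts to be tested, 28 had a few counts, at most 14.4 in any library, and 18 had none. Of the 40, 37 had a mean count of at least 10 in both groups and 3 (HIST1H3B, HIST1H4C and HIST1H2APS4) in one group only. At an adjusted p under 0.05 over 14433 genes (edgeR quasi-likelihood test with Benjamini-Hochberg adjustment), 4 of the 40 rows were higher (10%), against 2.29% of all genes, and 0 were lower, against 1.91% of all genes. By the unadjusted p, 14 of the 40 (35%) were under 0.05, near the 30.2% of all genes. The 4 genes were HIST2H4A, HIST2H2BE, HIST1H2BK and HIST1H2BD. The median log2 fold change of the 40 rows was 0.35, against 0.01 over all genes, and 32 of the 40 were above 0 (80%), against 50.7% of all genes. Set against genes of like length the gap was smaller: 24 of the 40 rows lay above the median of all genes in their own length bin, by a median of 0.14 on the log2 scale over the 40. By bin, 6 of 11 rows lay above up to 600 bases, 6 of 11 up to 1000 and 3 of 6 up to 1500. Among the longer rows 2 of 4 lay above up to 2000 bases and 7 of 8 up to 3000 bases. Histone and all-gene medians were 0.57 and 0.41 up to 600 bases, 0.46 and 0.40 up to 1000, 0.42 and 0.32 up to 1500, 0.32 and 0.22 up to 2000, and 0.23 and 0.07 up to 3000 bases. In 14 rows (35%) all 3 CTTN counts exceeded all 3 control counts, which held for 19.7% of all genes.

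Under the length offset 8 of the 40 rows were higher (20%), against 9.21% of all genes, and 0 were lower, against 8.04% of all genes. These 8 held the 4 genes above together with HIST1H1C, HIST3H2A, HIST1H2AC and HIST1H3H. The fold changes were smaller in that fit, with a median log2 value of 0.19 against 0.01 over all genes and 25 of 40 rows above 0. In CTTN library 2 alone, 32 of the 40 rows lay above the control mean with a median log2 ratio of 0.30. The count of CTTN library 2 exceeded that of every control in 52.5% of the 40 rows and in 34.7% of all genes.

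**Figure D2:**
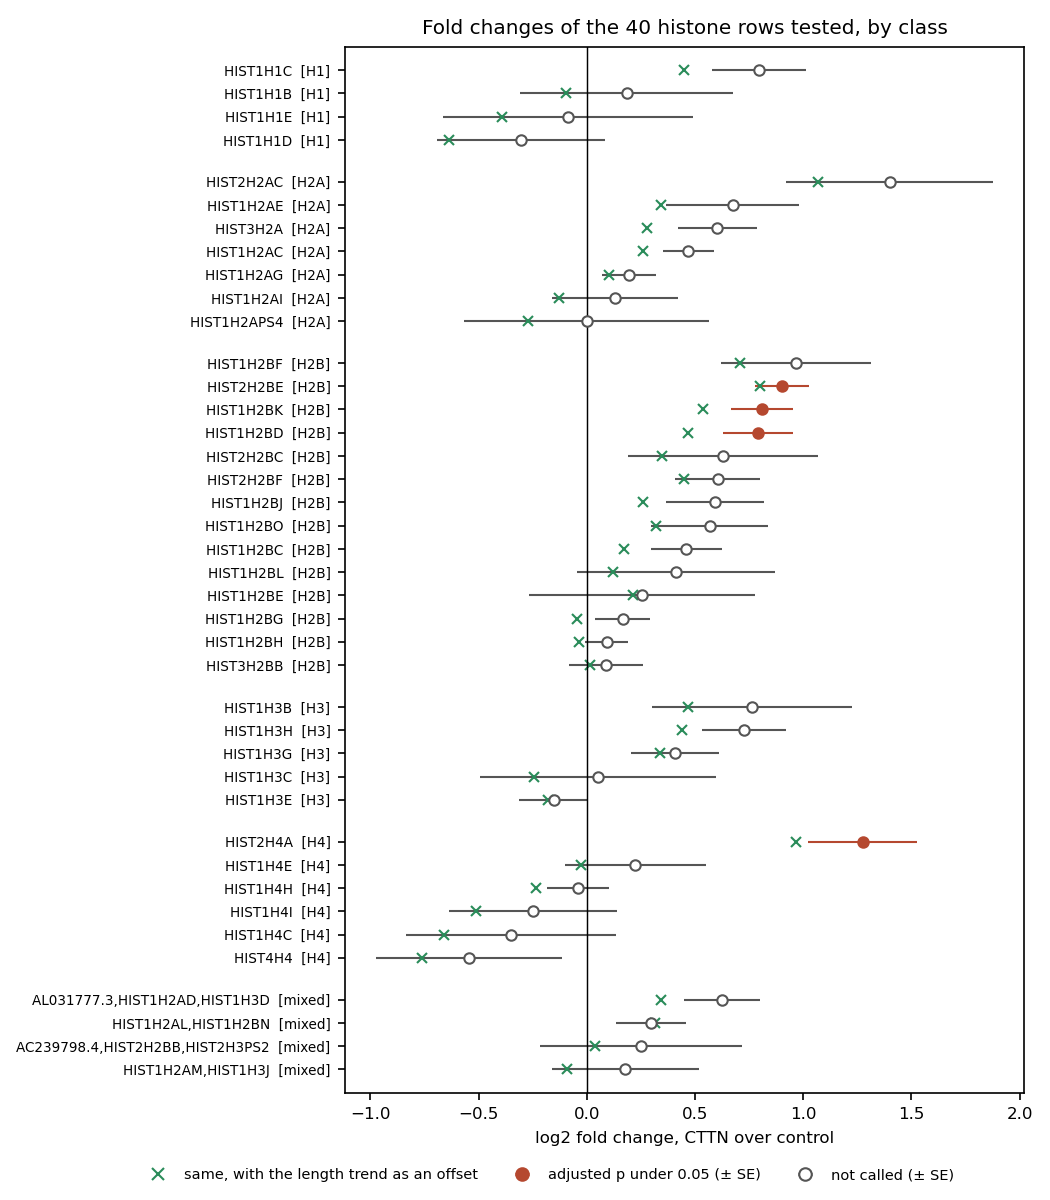
Log2 fold change (CTTN over control, horizontal) of the 40 tested histone rows, grouped by class, with SE bars; red circles passed the adjusted p of 0.05 and crosses give the value with the length trend as an offset. All 14 H2B rows lie above 0 without the offset, the 6 H4 rows lie on both sides, and most crosses lie left of their circles.

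H2B genes held 3 of the 4 calls. The 24 H2B rows made up 54.3% of the summed histone FPKM, and in counts 40.2% of the histone total in CTTN and 38.3% in control libraries. They summed to 291, 236 and 334 FPKM in CTTN libraries 1, 2 and 3 and 166 to 171 FPKM in the controls, a ratio of 1.70. Of these rows 14 were tested, 3 rose (2.29% of all genes did) and 0 fell. All 14 log2 fold changes were above 0 (median 0.58), and 12 were above 0 with the length offset. The 10 rows not tested were pseudogenes and genes near the limit of detection, such as HIST1H2BB, HIST1H2BI and HIST1H2BM.

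HIST1H2BK was the most abundant of the clustered histone rows. It had 1545, 1262 and 1854 counts in CTTN libraries 1, 2 and 3 and 861, 889 and 908 counts in control libraries 1, 2 and 3. Every CTTN library lay above every control, and the lowest of them, CTTN library 2, was also the one without a length trend. The gene rose 1.75-fold (log2 0.81 ± 0.14, SE, n = 3 and 3, edgeR adjusted p = 0.0306), and 1.45-fold with the length offset (adjusted p = 0.00241), and stood 0.51 higher on the log2 scale in CTTN library 2 alone. Its level was 215 ± 42.9 FPKM in CTTN cells and 121 ± 3.95 FPKM in controls (SD, n = 3). The deposited model covers only 381 bases of the gene, at chr6:27146418-27146798 in GRCh38, while RefSeq places H2BC12 at 27138293 to 27146858. The length offset took its length from that model too, so its value for this gene holds only if the model's length is right. FPKM divides by an effective length, which for so short a model is well below the full length, so its mean of 168 FPKM over the 6 libraries compares with 86.7 CPM per kilobase, still the highest of the histone rows.

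HIST1H2BD had 429, 358 and 539 counts in the CTTN libraries and 270.3, 257 and 239.5 counts in the controls. The groups did not overlap. It rose 1.73-fold (log2 0.79 ± 0.16, SE, edgeR adjusted p = 0.0455), and 1.38-fold with the length offset (adjusted p = 0.00531), and stood 0.48 higher on the log2 scale in CTTN library 2 alone. Its row (chr6:26158146-26184655, GRCh38) reports a transcript of 789 bases, with 365, 316 and 491 counts in CTTN and 230, 208 and 216 counts in control libraries, and one of 496 bases with 64.5, 41.8 and 47.2 against 40.5, 49.0 and 23.0 counts. The longer transcript separated the groups and the shorter one did not.

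HIST2H2BE, which lies in the HIST2 cluster on chromosome 1 (row at 149884459 to 149886652, GRCh38, 2194 bases long), was called under 9 of the 13 other ways of processing that kept replicates in both groups. HIST1H2BK, HIST1H2BD and HIST2H4A were each called under 7 of the 13. The counts of HIST2H2BE were 497, 526 and 539 in the CTTN libraries and 321, 244 and 270.2 in the controls, and its CTTN libraries varied little among themselves. It rose 1.87-fold (log2 0.90 ± 0.12, SE, edgeR adjusted p = 0.0145), 1.74-fold with the length offset (adjusted p = 0.002) and by 0.91 on the log2 scale in CTTN library 2 alone.

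Of the other H2B rows, HIST1H2BJ had 194, 154 and 264 counts in CTTN and 140.3, 155 and 111 counts in control libraries, and the groups overlapped because CTTN library 2 lay within the controls (log2 fold change 0.59, edgeR adjusted p = 0.143). Its value with the length offset was 0.26. The largest H2B value that was not called was that of HIST1H2BF, at 0.97 ± 0.35 (SE, adjusted p = 0.13), from 16.6 to 23.5 counts in CTTN and 6.19 to 13.4 in control libraries. HIST1H2BH and HIST1H2BG, with 122.6 or more counts in every library, differed little between the groups, at 0.09 ± 0.10 and 0.16 ± 0.13 on the log2 scale (SE).

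**Figure D3:**
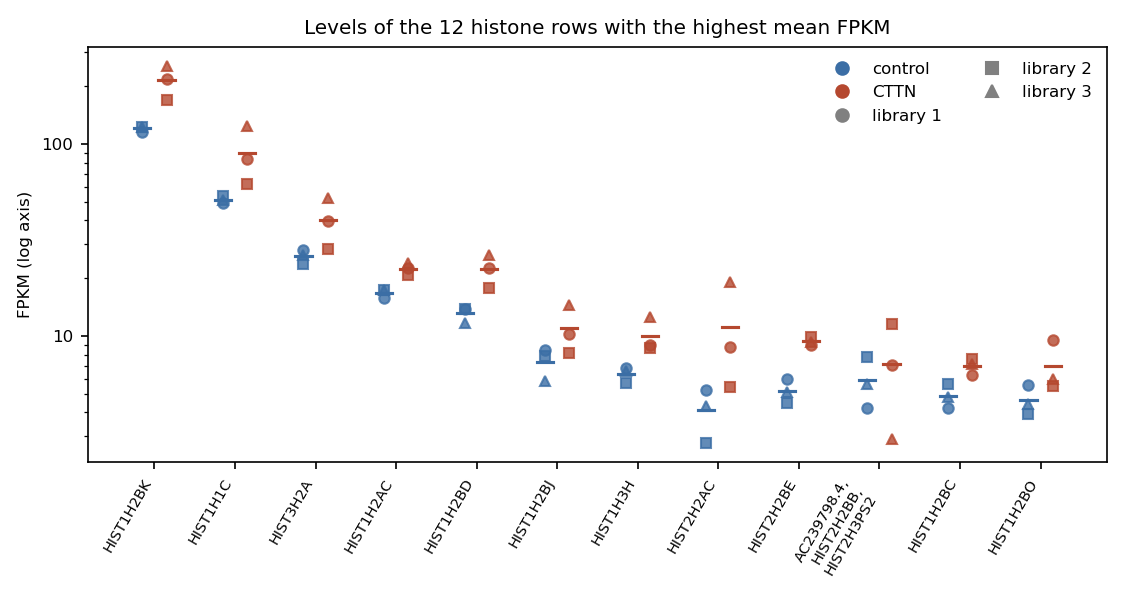
FPKM (vertical, log axis) of the 12 histone rows with the highest mean, one point per library with the group mean as a line. HIST1H2BK stands highest, at 116 to 123 FPKM in the controls and 170 to 255 FPKM in the CTTN libraries, and CTTN library 3 is the highest point for HIST1H2BK, HIST1H1C and HIST3H2A.

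H2A genes were higher in sum, with no single call. The 20 H2A rows summed to 83.5, 66.0 and 109 FPKM in CTTN libraries 1, 2 and 3 and to 59.0, 53.4 and 57.4 FPKM in the controls, a ratio of 1.52. Of the 7 tested rows 0 were called by edgeR and 6 had a log2 fold change above 0 (median 0.47). With the length offset 2 were called higher, as were 9.21% of all genes. The 13 rows not tested included HIST2H2AA3 and HIST2H2AA4, near-identical copies with at most 1.04 counts in any library, whose reads may have been set aside or split in the counting.

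HIST3H2A, the highest of the clustered H2A rows by FPKM, had 918, 715 and 1177 counts in the CTTN libraries and 656, 558 and 636 counts in the controls. The groups did not overlap, and the gap between CTTN library 2 and the highest control was small. Its log2 fold change of 0.60 ± 0.18 (SE) was not called (edgeR adjusted p = 0.0988), and it was 0.28 with the length offset (adjusted p = 0.0447) and 0.21 in CTTN library 2 alone. HIST1H2AC showed a like picture, with 1087, 929 and 1209 counts against 720.2, 821 and 788 counts. Its log2 fold change was 0.47 ± 0.12 (SE, adjusted p = 0.0725), 0.26 with the length offset (adjusted p = 0.0487) and 0.25 in CTTN library 2 alone.

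HIST2H2AC had the largest fold change of the tested histone rows, 2.64-fold (log2 1.40 ± 0.48, SE), but was not called (edgeR adjusted p = 0.122), and its log2 value was 1.07 with the length offset (adjusted p = 0.0587). Its counts were 51.8, 35.2 and 114 in the CTTN libraries and 32.0, 16.6 and 26.8 in the controls. Without CTTN library 3, the highest, the log2 value was 0.77, and in CTTN library 2 alone it was 0.46. HIST2H2AC shares its upstream region with HIST2H2BE, whose start site lies 236 bases away on the other strand.

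Of the 11 divergent H2A and H2B pairs, 8 had both rows tested, and 1 pair held a called gene, HIST2H2BE. Both log2 fold changes were above 0 in each of the 8 (5 of 8 with the length offset). Taken singly, all 14 tested H2B rows, 6 of the 7 tested H2A rows and all 4 mixed rows were above 0. The count of pairs therefore cannot show whether the genes of a pair moved together. In 2 of the 8 pairs the H2A gene, HIST1H2AD or HIST1H2AM, was part of a merged row, so its value is not that gene's alone. HIST1H2BC and HIST1H2AC had close values, 0.46 and 0.47 on the log2 scale. HIST3H2A and HIST3H2BB stood at 0.60 ± 0.18 and 0.09 ± 0.17 (SE), and at 33.0 and 1.32 mean FPKM. HIST1H2BJ and HIST1H2AG, at 0.59 and 0.20, also sat apart. The difference within a pair was not tested.

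Among the clustered H1 rows, nearly all FPKM came from HIST1H1C, which encodes the linker histone H1.2. The 8 H1 rows summed to 84.9, 64.9 and 127 FPKM in the CTTN libraries and to 52.6, 56.1 and 52.9 FPKM in the controls, a ratio of 1.72. HIST1H1C alone had 1314, 1031 and 1934 counts in CTTN and 786, 856 and 825 counts in control libraries. The groups did not overlap, and CTTN library 3 stood well above the other two. Its fold change of 1.73 (log2 0.79 ± 0.22, SE) missed the threshold (edgeR adjusted p = 0.0827), was 1.37-fold with the length offset (adjusted p = 0.0134) and 0.32 on the log2 scale in CTTN library 2 alone.

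The remaining clustered H1 genes were near the limit of detection. HIST1H1D had 11.4, 15.6 and 27.7 counts in CTTN and 28.9, 18.3 and 21.1 counts in control libraries, and HIST1H1B had 8.29, 20.5 and 12.2 against 18.6, 7.86 and 8.62 counts. In both, the groups overlapped, with log2 fold changes of -0.30 ± 0.39 and 0.18 ± 0.49 (SE). The 4 rows not tested were HIST1H1A, the testis gene HIST1H1T and 2 pseudogenes.

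H3 genes were low and mixed. The 14 H3 rows summed to 23.0, 18.2 and 29.5 FPKM in the CTTN libraries and to 18.0, 15.8 and 17.1 FPKM in the controls, a ratio of 1.39, and of 5 tested rows 0 were called by edgeR, 4 having a log2 fold change above 0. HIST1H3H, the highest, had 269.5, 244 and 391 counts against 195, 164 and 188 counts, so that the groups did not overlap. Its log2 fold change was 0.73 ± 0.20 (SE, adjusted p = 0.0806), 0.44 with the length offset (adjusted p = 0.0307) and 0.42 in CTTN library 2 alone. HIST1H3G had 232, 208 and 330.2 counts against 225, 173 and 182 counts, and its groups overlapped (log2 0.41, adjusted p = 0.208). HIST1H3C, with a transcript of 411 bases, ranged from 4.89 counts in CTTN library 2 to 31.1 in CTTN library 1 and from 14.8 to 22.0 in the controls, and the sign of its difference changed with the processing.

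H4 had the ratio nearest 1 of the 5 classes. The 16 H4 rows summed to 10.3, 9.52 and 11.6 FPKM in the CTTN libraries and to 9.60, 8.23 and 9.59 FPKM in the controls, and these ranges overlapped, with a ratio of 1.15. Of the 6 tested rows 1 rose (2.29% of all genes did), 0 fell and 4 had a log2 fold change below 0 (median -0.14). HIST1H4H, the most abundant, had 104, 97.7 and 112 counts against 93.9, 113 and 116 counts, a log2 fold change of -0.04 ± 0.14 (SE). HIST1H4C had under 15 counts in every library, and HIST4H4, the single row of its cluster, had 13.5, 19.5 and 5.54 counts in CTTN and 20.6, 14.0 and 22.0 counts in control libraries.

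HIST2H4A was the H4 gene that rose. It had 68.4, 47.9 and 70.9 counts in the CTTN libraries and 31.0, 26.2 and 20.1 counts in the controls, without overlap. Its fold change was 2.42 (log2 1.28 ± 0.25, SE, n = 3 and 3, edgeR adjusted p = 0.0416), and 1.95 with the length offset (adjusted p = 0.018), and in CTTN library 2 alone the log2 value was 0.89. Its row (chr1:149832659-149841193, GRCh38) reaches past the RefSeq end of H4C14 at 149833052 and toward neighbouring histone genes, and HIST2H4B, its near-identical copy, was listed at 0 in every library, so the source of these reads is uncertain between the copies.

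The study's list of genes tied to trastuzumab resistance includes HIST2H4A, HIST1H4B and HIST1H3A. It holds genes that changed in these samples and were also in gene sets from public data of patients given trastuzumab. The patient data were not examined here. The changes listed come from these same samples, so they are not independent evidence. HIST1H4B had 4.15, 3.91 and 4.43 counts in the CTTN libraries and 2.06, 0 and 0.958 in the controls. HIST1H3A had 7.26, 5.86 and 11.1 counts against 2.06, 5.24 and 1.92 counts. In both, each CTTN library lay above each control, but both rows fell under the low-count filter. In the edgeR fit without that filter neither was called (adjusted p = 0.287 for HIST1H4B and 0.248 for HIST1H3A). The study's list gives p-values that it does not describe as adjusted. The unadjusted p of that edgeR fit was 0.0676 for HIST1H4B and 0.0479 for HIST1H3A, and 19.8% of all genes were under 0.05.

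In 4 rows the table merged genes of 2 classes into 1 locus, and the share of each gene is known only from the authors' estimates per transcript model. The row of HIST1H2AD, HIST1H3D and the non-coding AL031777.3 had 174, 175 and 223 counts in CTTN and 124, 102 and 145 counts in control libraries, without overlap (log2 fold change 0.62 ± 0.18, SE, edgeR adjusted p = 0.0879). Of these counts 99.0% were assigned to AL031777.3, so the row says little of its histone genes. The row of HIST2H2BB, HIST2H3PS2 and AC239798.4 ran from 44.3 counts in CTTN library 3 to 194 in CTTN library 2, with 78.4 to 102 counts in the controls, and 72.7% of its counts were assigned to AC239798.4. The row of HIST1H2AL and HIST1H2BN had 109.9, 96.7 and 82.0 counts against 74.3, 83.8 and 76.6 counts (log2 0.30, adjusted p = 0.233). Of its counts 88.7% were assigned to HIST1H2BN. The row of HIST1H2AM and HIST1H3J had under 21 counts in every library. Over all libraries these split nearly evenly between the 2 genes. Within libraries the split ran from 1.08 against 12.6 counts in CTTN library 2 to 13.0 against 2.47 counts in CTTN library 3, in the same order.

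By cluster, HIST1 rows summed to 439, 352 and 537 FPKM in CTTN libraries 1, 2 and 3 and to 266, 277 and 272 FPKM in the controls (ratio 1.63), and 2 of 31 tested rows rose. The HIST2 cluster summed to 30.2, 33.0 and 37.6 FPKM against 19.8, 19.8 and 18.4 FPKM (ratio 1.74), and 2 of 6 tested rows rose, with all 6 log2 fold changes above 0. Over all genes 2.29% rose and 50.7% had a log2 fold change above 0. The 6 include the merged row of AC239798.4, HIST2H2BB and HIST2H3PS2, whose sign turned when single libraries were left out. Summed HIST2 counts were 1.61, 1.88 and 1.76 times the control mean in CTTN libraries 1, 2 and 3, and summed HIST1 counts 1.45, 1.25 and 1.79 times. The HIST2 counts include the merged row of AC239798.4, with 93.3, 194 and 44.3 counts in CTTN libraries 1, 2 and 3. Of its counts 72.7% were assigned to AC239798.4, so the order of the HIST2 ratios rests partly on a transcript that is not a histone gene's. HIST2H2BE held 520 of the mean 843 HIST2 counts in the CTTN libraries. The HIST3 cluster, mostly HIST3H2A, summed to 42.0, 30.7 and 53.7 FPKM against 29.6, 25.1 and 28.1 FPKM (ratio 1.53), and 0 of its 2 tested rows were called. HIST4 stood at 0.777 ± 0.446 FPKM in CTTN and 0.777 ± 0.313 FPKM in control libraries (SD, n = 3). No difference between clusters or classes was tested.

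**Figure D4:**
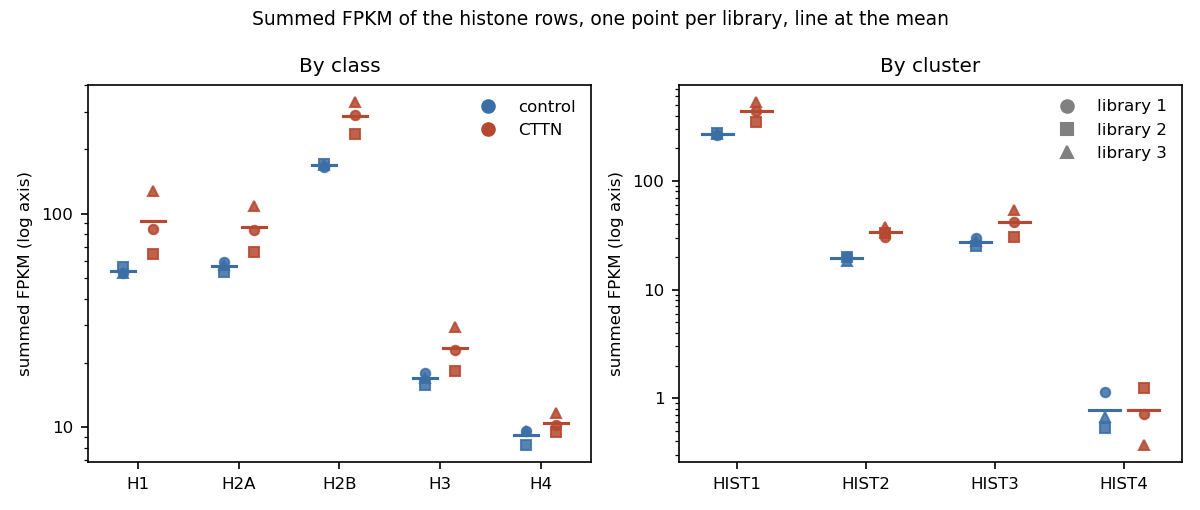
Summed FPKM (vertical, log axis) of the histone rows by class and by cluster, one point per library with the group mean as a line. CTTN libraries lie above all controls for H1, H2A, H2B and H3 and for HIST1, HIST2 and HIST3, and overlap them for H4 and HIST4.

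The other genes of histone supply were described from lists of the pathway. Most of the histone variants are made outside S phase too, from polyadenylated mRNAs. Of the 14 variants 11 were tested, 1 rose (2.29% of all genes did) and 0 fell (1.91% did). The one was H1F0, encoding linker histone H1.0, with 26832, 26401 and 27819 counts in CTTN and 20899.8, 20044 and 19680.5 counts in control libraries (log2 fold change 0.42 ± 0.08, SE, edgeR adjusted p = 0.0326, and 0.34 with the length offset). The 3 CTTN libraries lay close together and above every control. The median log2 fold change of the 11 was 0.34, and 0.08 with the length offset. That fit called 2 variants higher, against 9.21% of all genes, and 1 lower, against 8.04% of all genes. The lower one was H3F3A, encoding histone H3.3 (log2 -0.19, edgeR adjusted p = 0.0326, against 0.11 without the offset).

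Genes that transcribe and process histone mRNA did not pass the test. The 15 genes included the transcription coactivator NPAT and the stem-loop binding protein SLBP. Of them 0 were called by edgeR and 4 had an unadjusted p under 0.05 (30.2% of all genes did). The median log2 fold change was -0.11, with a range of -0.68 to 0.48, and with the length offset the median was 0.06. Of 17 histone chaperones and chromatin assembly genes 0 were called and 3 had an unadjusted p under 0.05. Their median was -0.01, and 0.03 with the length offset. Of 28 genes of S phase and DNA replication 0 were called and 5 had an unadjusted p under 0.05. Their median was -0.00, with 14 of 28 values above 0, and -0.02 with the length offset. DESeq2, which called 14.1% of all genes and 10 of the 33 histone rows it gave an adjusted p, called 0 of the 15, 1 of the 17 (lower) and 3 of the 28 (2 higher, 1 lower).

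The histone calls depended on which libraries were used. Without CTTN library 1, or without any single control library, 0 of the histone rows were called by edgeR, with 10 to 13 (24.4% to 32.5%) at an unadjusted p under 0.05, against 15.9% to 18.5% of all genes, while all genes called went from 606 to between 15 and 30. Without CTTN library 2, 13 of 41 histone rows were called (31.7%), against 6953 of 14733 genes (47.2%). Without CTTN library 3, 6 of 40 were called (15%), against 1244 of 14575 genes (8.54%). Over these 6 omissions the log2 fold change of HIST1H2BK ran from 0.66 to 0.94, that of HIST2H2BE from 0.82 to 1.01, that of HIST1H2BD from 0.62 to 0.92 and that of HIST2H4A from 1.12 to 1.43. Their edgeR adjusted p ran up to 0.179, 0.101, 0.207 and 0.199 in the same order.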

How the data were processed

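In all, 6 poly(A)-selected, stranded mRNA libraries of SKBR3 cells (3 CTTN, 3 control) were analysed. Per the labels, reads were made with bcl2fastq 2.20.0 and processed with Trimmomatic, STAR and Cufflinks on GRCh38. The study's methods name Cutadapt and an older build, and the coordinates in the files are those of GRCh38. The authors deposited estimated counts, divided by a scale per library, and FPKM per gene. Whether counting used strand is not given in the sources used here. Here the estimated counts were rounded and genes with low counts removed (filterByExpr, minimum count 10), and CTTN was compared with control by edgeR 4.0.16 (TMM, quasi-likelihood test, Benjamini-Hochberg adjustment over all genes, R 4.3.3). The scripts were tested on simulated data. The length offset was a spline of transcript length (4 degrees of freedom) per library. Alternatives were DESeq2 1.42.0, limma 3.58.1 on log2(FPKM + 0.1) and log2(FPKM + 1), no further scaling, unscaled counts, no filter and leaving out each library. Control libraries are numbered as in the deposited list of libraries, since the labels number their columns differently. Histone rows were matched to RefSeq by older symbols (86 of 86). Histone genes are named if called, if among the 3 highest by FPKM of their class, if changed at least 2-fold or if on the study's list, and the other genes named as examples were chosen after their values were seen. Members and lists were chosen with earlier results of these data known.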

Additional observations from a re-analysis of the deposited data

How the results depend on the processing

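All alternatives kept the direction of HIST1H2BK, HIST2H2BE, HIST1H2BD, HIST2H4A, HIST2H2AC, HIST1H1C, HIST3H2A, HIST1H2AC and HIST1H3H. The number of calls moved more. DESeq2 called 1919 of 13576 genes (14.1%), 10 of 33 histone rows (10 of the named ones), 2 histone variants, 1 chaperone and 3 S-phase genes. limma called 180 genes with a pseudocount of 0.1 and 185 with 1, in each case 1 histone row (HIST2H2BE) and 0 variants. With the length offset 2489 genes (17.2%), 8 of 40 histone rows (all higher), 3 variants (2 higher), 2 chaperones (both lower) and 5 S-phase genes (3 higher) were called. With CTTN library 2 alone, assumed to vary like the controls, 2128 of 15082 genes (14.1%), 5 of 41 histone rows (12.2%, below the share of all genes), 2 variants, 2 chaperones and 3 S-phase genes were called. Without further scaling, and with unscaled counts, 1 S-phase gene was called. Leaving out 1 library gave 15 to 6953 genes, 0 to 13 histone rows, 0 to 12 of the named ones, 0 to 6 variants, 0 to 8 processing genes, 0 to 7 chaperones and 0 to 12 S-phase genes. The cause of these shifts was not tested.

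The sign of HIST1H3C turned with limma (-0.23 and -0.081), with the length offset (-0.25), with CTTN library 2 alone (-1.83) and within the omissions (-0.52 to 0.49). The sign of HIST1H1B turned with the length offset (-0.10) and within the omissions (-0.26 to 0.67), and the omissions also spanned 0 for HIST1H4H (-0.13 to 0.010) and for the merged row of AC239798.4, HIST2H2BB and HIST2H3PS2 (-0.44 to 0.63). The summed FPKM ratio of the HIST2 cluster was 1.96 over rows of a single gene. No paired analysis was possible because the labels and the deposited list number the control libraries differently, so that the control columns carry no agreed replicate number, and the numbers used here for them are names only. Depth limits the rows with few counts, which are those not tested and several of the tested H1, H3 and H4 rows.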

Other observations

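Transcript models within a histone row were not always stable. HIST1H2AC was split between models of 1654 and 1668 bases, and the 1654-base model took 17.4, 480.1 and 326.8 counts in CTTN libraries 1, 2 and 3 and 633.1, 0.3 and 133 counts in control libraries 1, 2 and 3, while the 1668-base model took 970.9, 390.2 and 756.3 against 0.4, 778.9 and 574.5 counts. The sum over the row was steady within groups. The split is given as values only.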
